A study of Bos taurus with 12 samples.

Results

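Skeletal muscle fibres come in slow and fast kinds, and each kind builds its contractile apparatus from its own set of isoforms. The 34 genes described here are 16 chosen for fast fibres and 18 chosen for slow fibres, by gene name, with earlier results of these data known. A probe could be matched to 31 of the 34 through the array's gene name, gene number, accession or description, 14 on the fast list and 17 on the slow list, and all 31 were among the 13706 genes tested. No probe was matched to MYH2, the myosin heavy chain of fast oxidative fibres, or to TNNI2 and TNNI1, the fast and slow troponin I.

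Their messenger RNA levels were measured in the biceps brachii of 12 bulls, 4 to a group, all 18 to 20 months old. The dex + clen bulls had 0.66 mg of dexamethasone per head for 21 days in their feed, with clenbuterol over 28 days. Clenbuterol was stepped up from 2 mg a head in the opening week to 4 mg in the next and 6 mg in the last weeks. The dex bulls had 0.75 mg of dexamethasone per head for 42 days, and the control bulls were untreated. How long before slaughter dosing ended is not stated in these sources, and the 12 animals were picked from 24 by RNA quality and not at random. Dexamethasone is a synthetic glucocorticoid and clenbuterol is a beta-adrenergic agonist, and the dose and length of dexamethasone differed between the treated groups along with the clenbuterol.

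In the sarcomere, myosin heavy chains with their light chains pull on thin filaments of actin, and tropomyosin with the troponin complex switches those filaments on when calcium is released. Slow fibres pair MYH7 myosin with slow light chains, slow troponins, the calcium pump ATP2A2 and much myoglobin, and resist fatigue. Fast fibres use MYH1, MYH2 or MYH4 myosin, fast troponins and the calcium pump ATP2A1, and shorten faster. In rodents, glucocorticoids are known to waste fast fibres more than slow ones and clenbuterol to enlarge muscle and favour fast fibres. In a tissue sample, fewer fibres of a kind and less RNA per fibre cannot be told apart.

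Each animal's RNA was hybridised to 1 single-colour array. Levels are log2 signal relative to the array's own 75th percentile, so a level of 0 is at that percentile and a step of 1 is a doubling. They are comparable between animals for a gene and not between genes. On each array 53.2% to 68.7% of spots stood well above background. Precision is limited by the number of arrays. All 9 fixed markers of skeletal muscle were well above background on all 12 arrays, while the cardiac hormone genes NPPA and NPPB were so on 0 arrays. Arrays were scanned on different days. Control bulls 1 to 3 were scanned on day 1, control bull 4 with bulls 1 to 3 of both treated groups on day 2, dex bull 4 on day 3 and dex + clen bull 4 on day 4. Day and treatment were therefore largely entangled. Values within day 2 (1 control bull) and outside it are given for the genes with the largest log2 changes or spread. Arrays also share slides. On day 2, control bull 4 shared slide 2 with dex bulls 1 to 3, while dex + clen bulls 1 to 3 were on slide 3. The dex + clen bulls shared no slide with another group, so slide and treatment cannot be told apart in their comparisons, also within day 2.

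A second limit is the top of the scanner's range. The saturation value lay at a level of 8.84 to 9.73, depending on the array, and 13 of the 31 genes averaged less than 2 log2 units below it. These were MYH7, MYL2, TNNC1, FHL1 and MB on the slow list and MYH1, MYL1, MYLPF, TNNC2, ATP2A1, MYBPC2, TPM1 and MYOZ1 on the fast list. They encode abundant muscle proteins, and of the 25 tested genes with a mean level of 8 or above, 13 were members. MB, the oxygen store myoglobin, was saturated on all 4 arrays of each group, so its levels are bounds only. TNNC2 was saturated on 4 dex + clen, 1 dex and 4 control arrays, TNNC1 on 3, 3 and 1 and MYOZ1 on 2, 0 and 1, in the same order. The largest log2 change in size among the 25 bright genes in dex against control was 0.44.

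**Figure D1:**
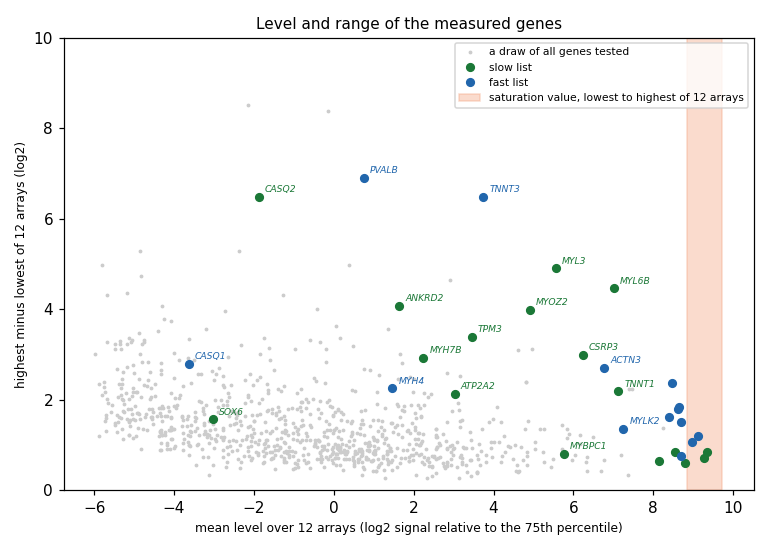
Mean level of each gene over 12 arrays (log2 signal relative to the 75th percentile, horizontal) against its highest minus lowest array (log2, vertical), for slow-list genes in green, fast-list genes in blue and a draw of other tested genes in grey. The shaded band spans the saturation value of the 12 arrays, 8.84 to 9.73, and the 13 genes near it range over at most 2.36 log2 units, while CASQ2, PVALB and TNNT3 each range over more than 6 log2 units.

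The first comparison asked how the fibre genes differed between dex bulls and control bulls. No member passed: limma called 0 of 31 at an adjusted p under 0.05, against 0.613% of all genes tested. At an unadjusted p under 0.05, 7 members were higher and 0 lower, where 5.46% of all genes were higher and 6.87% lower. The 7 were 6 of the 17 slow genes (MYL6B, MYOZ2, CSRP3, ANKRD2, TPM3 and MYH7B) and 1 of the 14 fast genes (MYH4). The slow list had a median log2 change of 0.71 with 14 of 17 genes above 0, the fast list a median of -0.22 with 3 of 14 above 0, and all genes tested a median of 0.03. Among the 12 slow genes at least 2 log2 units below saturation the median was 1.35, and among the 5 bright ones 0.03.

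The slow median was 1.28 within scan day 2, over 3 dex bulls and 1 control bull, and 0.15 outside it, over 1 dex bull and 3 control bulls. It was 0.46 without control bull 1 and 1.12 without dex bull 4. The fast median was -0.45 within day 2 and 0.42 outside it. It was -0.43 without dex bull 4 and 0.09 without dex bull 1, so its sign changed both outside day 2 and without dex bull 1.

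Of the slow myosin subunits, MYL6B had the largest log2 change. This gene encodes an alkali light chain of myosin found in slow muscle and in other tissues. It stood at 8.54, 7.69, 8.81 and 6.71 in dex bulls 1 to 4, against 4.53, 4.57, 7.92 and 4.34 in control bulls 1 to 4. Control bull 3 lay with the treated animals, and the groups overlapped through it. The log2 change was 2.60 ± 0.76 (SE, n = 4 per group), 6.05-fold, with a limma adjusted p of 0.168, and it was 4.01 within scan day 2 and 1.04 outside it. Without control bull 3 it was the only member called, with a limma adjusted p of 0.0277.

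MYH7B, a myosin heavy chain related to MYH7, had levels of 3.37, 2.37, 3.64 and 1.60 in dex bulls, against 0.70, 1.49, 2.35 and 1.32 in control bulls. Dex bulls 1 to 3 lay above every control bull and dex bull 4 among them (log2 change 1.28 ± 0.56, limma adjusted p = 0.383, 1.81 within scan day 2 and 0.09 outside it). MYH7, the slow myosin heavy chain itself, was at 8.42, 8.69, 8.94 and 8.58 in dex bulls and at 8.09, 8.54, 8.67 and 8.43 in control bulls. Its log2 change was 0.23 ± 0.17, with a 95% interval of -0.15 to 0.60, on a probe close to saturation. MYL2, the slow regulatory light chain, had a log2 change of 0.03 ± 0.17, also close to saturation.

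MYL3 is the slow and ventricular essential light chain, but its probe needs care, since the array file gives it the same gene model and accession as the MYL1 probe and only the descriptions differ. Its level was 5.25, 6.10, 3.69 and 5.29 in dex bulls and 5.29, 6.01, 5.31 and 6.06 in control bulls. Dex bull 3 was low and the others lay near or within the control values (log2 change -0.59 ± 0.90).

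On the thin filament, TPM3, the tropomyosin of slow fibres, stood at 5.36, 3.91, 5.02 and 2.18 in dex bulls, against 1.97, 2.35, 3.49 and 2.02 in control bulls. Here too dex bulls 1 to 3 lay above every control bull and dex bull 4 did not. The log2 change was 1.66 ± 0.61 (3.16-fold, limma adjusted p = 0.287), at 2.74 within scan day 2 and -0.42 outside it. TNNT1, slow troponin T, had levels of 7.99, 7.12, 8.27 and 6.15 in dex bulls and 6.27, 6.63, 7.41 and 6.09 in control bulls, with a log2 change of 0.78 ± 0.47 that was 1.71 within day 2 and -0.62 outside it. TNNC1, the troponin C of slow and cardiac muscle, was saturated on 3 dex arrays and 1 control array, so its measured means of 9.42 ± 0.21 in dex and 9.26 ± 0.25 in control bulls (SD, n = 4 each) are bounds and give no change.

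Among slow genes of the Z-disc and of stretch sensing was the member with the smallest p. CSRP3, the muscle LIM protein, stood at 7.23, 6.73, 7.14 and 6.75 in dex bulls, against 5.73, 6.07, 6.16 and 4.23 in control bulls. It was the only slow gene, and the only member, whose dex and control values did not overlap, where 2.52% of all genes were higher with no overlap and 3.93% lower. Its log2 change was 1.42 ± 0.39 (2.67-fold, limma adjusted p = 0.149), at 2.80 within scan day 2 and 0.77 outside it. MYOZ2, a calsarcin that ties the phosphatase calcineurin to the Z-disc of slow fibres, had levels of 6.40, 4.98, 6.21 and 4.49 in dex bulls and 3.09, 2.41, 5.11 and 3.97 in control bulls. Control bull 3 again overlapped the dex bulls (log2 change 1.87 ± 0.56, 3.66-fold, limma adjusted p = 0.179, 1.89 within day 2 and 0.95 outside it). ANKRD2, an ankyrin repeat protein induced by stretch, was at 2.44, 1.87, 2.92 and 0.45 in dex bulls and at -0.08, -0.25, 0.88 and 0.64 in control bulls, with 3 of 4 dex bulls above every control bull (log2 change 1.62 ± 0.60, limma adjusted p = 0.295, 1.77 within day 2 and 0.27 outside it).

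Of the calcium handling genes of slow fibres, CASQ2 varied more between animals than ATP2A2. CASQ2, the calsequestrin of slow and cardiac muscle that stores calcium in the reticulum, had levels of 0.99, -1.53, 0.46 and -3.99 in dex bulls, against -3.99, -3.06, -1.16 and -5.49 in control bulls. The groups overlapped widely, and 1 control array was not well above background. Its log2 change of 2.41 ± 1.13 had a limma adjusted p of 0.415, and it was 5.46 within scan day 2 and -1.25 outside it. ATP2A2, the slow calcium pump, stood at 3.65, 4.14, 3.82 and 2.24 in dex bulls and at 2.01, 2.84, 3.56 and 2.59 in control bulls. Its log2 change was 0.71 ± 0.43, at 1.28 within day 2 and -0.56 outside it, and a second probe of the gene gave 0.31 ± 0.41.

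The remaining slow-list genes had small log2 changes. MYBPC1, slow myosin binding protein C, averaged 3.54 log2 units below saturation. Its log2 change was 0.04 ± 0.18, with a 95% interval of -0.35 to 0.43. FHL1, a LIM protein of muscle, had 0.03 ± 0.18. SOX6, on this list as a regulator, is known in mice as a repressor of slow fibre genes, and its log2 change was -0.36 ± 0.34, at -4.06, -2.50, -3.31 and -2.95 in dex bulls and -2.64, -2.58, -3.58 and -2.60 in control bulls.

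**Figure D2:**
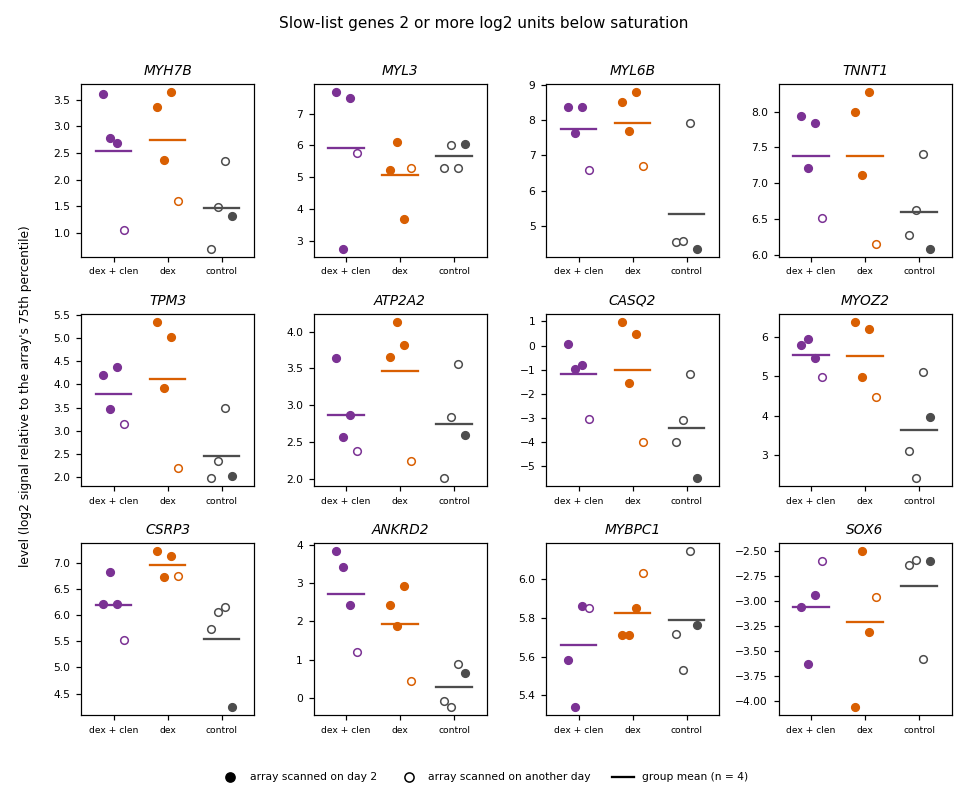
Level of each slow-list gene at least 2 log2 units below saturation (log2 signal relative to the array's 75th percentile) in 4 dex + clen, 4 dex and 4 control bulls. Points are animals, filled where the array was scanned on day 2, and bars are group means. In MYH7B, MYL6B, TNNT1, TPM3, ATP2A2, CASQ2, MYOZ2 and ANKRD2 the open point of each treated group lies at its bottom. In MYL6B 1 control bull lies at 7.92, far above the other 3.

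On the fast list, the log2 changes of the myosin heavy chains differed in sign. MYH4 had levels of 2.65, 1.81, 2.58 and 1.06 in dex bulls, against 0.40, 0.40, 1.68 and 1.03 in control bulls, with 3 of 4 dex bulls above every control bull. The log2 change was 1.15 ± 0.37 (2.22-fold, limma adjusted p = 0.218), at 1.31 within scan day 2 and 0.24 outside it. The probe is tied to MYH4 only by its description, and myosin heavy chain genes are near-identical over long stretches, so signal shared between them could not be checked without probe sequences. MYH1, a myosin heavy chain of fast glycolytic fibres, was at 7.36, 9.01, 8.49 and 9.20 in dex bulls and between 8.82 and 8.92 in all 4 control bulls. Dex bulls 1 and 3 were below every control bull and dex bulls 2 and 4 above (log2 change -0.36 ± 0.36). A second MYH1 probe gave 0.06 ± 0.21.

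The other fast sarcomere genes were marked by dex bull 1, which was the lowest of all 12 arrays for 11 of the 14 fast genes. ACTN3, the Z-disc actinin of fast fibres, was at 4.76 in that animal, at 7.16, 6.29 and 7.17 in dex bulls 2 to 4 and at 7.09, 6.77, 6.41 and 7.20 in control bulls (log2 change -0.52 ± 0.45, limma adjusted p = 0.703, -1.13 within scan day 2 and 0.42 outside it). MYBPC2, fast myosin binding protein C, was at 6.64 in dex bull 1, between 8.32 and 9.01 in the other dex bulls and between 8.57 and 8.77 in control bulls. The fast light chains MYL1 and MYLPF (named MYL11 in current annotation) had log2 changes of 0.01 ± 0.19 and -0.25 ± 0.29. Fast troponin C, TNNC2, was saturated on every control array and on 1 dex array, so its measured means of 9.06 ± 0.49 in dex and 9.25 ± 0.22 in control bulls (SD, n = 4 each) are lower bounds and give no fold. The tropomyosin TPM1 had a log2 change of -0.21 ± 0.32, the calcium pump ATP2A1 of -0.23 ± 0.27, the calsarcin MYOZ1 of -0.10 ± 0.23 and the myosin light chain kinase MYLK2 of -0.05 ± 0.30. CASQ1, the fast calsequestrin, was dim, above background on 3 dex and 3 control arrays, with a log2 change of 0.57 ± 0.62.

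PVALB and TNNT3 varied far more than the groups differed. PVALB, the calcium buffer parvalbumin of the fastest fibres, was at -2.96, 2.08, -2.46 and 1.73 in dex bulls and at -0.03, -0.50, -1.82 and 3.23 in control bulls. TNNT3, fast troponin T, was at 1.51, 3.29, 1.59 and 5.18 in dex bulls and at 6.69, 4.97, 0.99 and 2.84 in control bulls. Their log2 changes were -0.62 ± 1.27 for PVALB, at -4.35 within scan day 2 and 2.51 outside it, and -0.98 ± 1.60 for TNNT3, at -0.72 within and 0.96 outside. Duplicate spots of the TNNT3 probe differed by at most 0.17 on any array, so the spread of 6.49 over the 12 arrays was between samples and not between spots. TNNT3 transcripts are extensively spliced, and the splice forms that its probe detects are not stated in these sources.

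**Figure D3:**
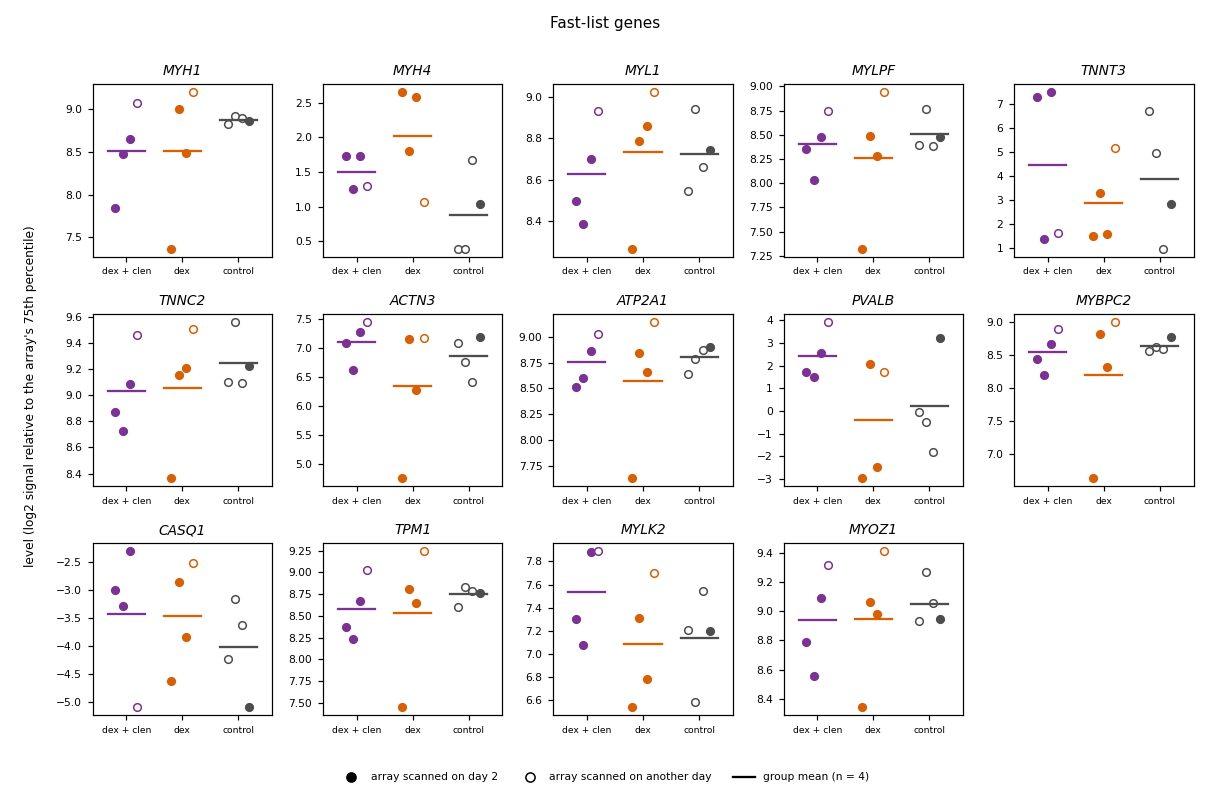
Level of each fast-list gene (log2 signal relative to the array's 75th percentile) in 4 dex + clen, 4 dex and 4 control bulls, with points for animals, filled where scanned on day 2, and bars for group means. Dex bull 1 is the lowest point of 11 of the 14 genes, with a wide gap to the next array in ACTN3, MYBPC2, ATP2A1, TPM1 and MYLPF and a narrow one in MYL1, MYLK2 and MYOZ1, and PVALB and TNNT3 are spread over more than 6 log2 units.

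The second comparison set dex + clen bulls against the same control bulls. Again limma called 0 of 31 members at an adjusted p under 0.05, against 0.0438% of all genes tested. At an unadjusted p under 0.05, 4 of 17 slow genes were higher (MYL6B, MYOZ2, ANKRD2 and TPM3) and 0 of 14 fast genes, with 0 members lower, where 6.98% of all genes were higher and 5.14% lower. The slow list had a median log2 change of 0.26 with 11 of 17 above 0, and the fast list -0.07 with 6 of 14 above 0, beside 0.03 over all genes. Among genes at least 2 log2 units below saturation the median was 0.92 for 12 slow genes and 0.59 for 6 fast genes, all 6 of them above 0.

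The slow median was 0.43 within scan day 2 and 0.11 outside it. Without control bull 1, or without dex + clen bull 1, it was 0.13, without dex + clen bull 3 it was 0.11, and without dex + clen bull 2 it was 0.44. The fast median was -0.21 within day 2 and 0.25 outside it, and it ran between -0.17 without dex + clen bull 4 and 0.02 without dex + clen bull 2.

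ANKRD2 was the only member whose dex + clen and control values did not overlap, where 4.51% of all genes were higher with no overlap and 3.72% lower. It was at 3.83, 3.42, 2.43 and 1.19 in dex + clen bulls, against -0.08, -0.25, 0.88 and 0.64 in control bulls. The log2 change was 2.42 ± 0.60 (5.35-fold, limma adjusted p = 0.187), at 2.58 within scan day 2. Outside that day dex + clen bull 4, at 1.19, stood above control bulls 1 to 3. MYL6B was at 8.39, 7.65, 8.39 and 6.58 in dex + clen bulls, close to its levels in dex bulls, with a log2 change against control of 2.42 ± 0.76 (5.34-fold, limma adjusted p = 0.269, 3.81 within day 2 and 0.91 outside it). MYOZ2 was at 5.79, 5.95, 5.48 and 4.98, and 3 of 4 dex + clen bulls lay above every control bull (log2 change 1.90 ± 0.56, 3.74-fold, limma adjusted p = 0.250, 1.76 within day 2 and 1.44 outside it).

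TPM3, at 4.21, 3.47, 4.39 and 3.14 in dex + clen bulls, had a log2 change of 1.34 ± 0.61 against control (limma adjusted p = 0.407), with 2.00 within day 2 and 0.53 outside it. CASQ2, at 0.06, -0.96, -0.79 and -3.05, had 2.24 ± 1.13, with 4.92 within day 2 and -0.31 outside it. MYH7B, at 3.60, 2.77, 2.68 and 1.05, had 1.06 ± 0.56, with 1.70 within day 2 and -0.46 outside it. TNNT1, at 7.94, 7.21, 7.84 and 6.51, had 0.78 ± 0.47, with 1.58 within day 2 and -0.26 outside it. In each of these 4 genes dex + clen bull 4, scanned apart from the other dex + clen bulls, was the lowest of its group. The same held for MYL6B, MYOZ2, ANKRD2, ATP2A2 and CSRP3, but not for MYL3, MYBPC1 or SOX6. CSRP3 was at 6.20, 6.83, 6.22 and 5.53, with a log2 change of 0.65 ± 0.39 that was 2.19 within day 2 and -0.45 outside it.

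The bright slow genes MYH7 (0.11 ± 0.17), MYL2 (-0.09 ± 0.17) and FHL1 (-0.10 ± 0.18) had small log2 changes on probes close to saturation. TNNC1 was saturated on 3 dex + clen arrays and 1 control array, and no change is read from it. Small log2 changes were also found for MYBPC1 (-0.13 ± 0.18), ATP2A2 (0.12 ± 0.43) and SOX6 (-0.21 ± 0.34), while the second ATP2A2 probe gave 0.61 ± 0.41. MYL3 was the exception in spread, at 7.67, 2.76, 7.50 and 5.77 in dex + clen bulls, where duplicate spots differed by at most 0.12. Those 4 values bracket all 4 control values, and the log2 change was 0.26 ± 0.90.

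Of the fast genes, PVALB had the largest log2 change, 2.21 ± 1.27 (limma adjusted p = 0.503). Its levels were 1.72, 1.50, 2.56 and 3.95 in dex + clen bulls, against -0.03, -0.50, -1.82 and 3.23 in control bulls. The 3 control bulls scanned on day 1 were below every dex + clen bull, while control bull 4 was above 3 of them, and the change was -1.31 within day 2 and 4.73 outside it. TNNT3 split the dex + clen bulls into 7.27 and 7.48 in bulls 1 and 3 and 1.40 and 1.66 in bulls 2 and 4 (log2 change 0.58 ± 1.60, with 2.54 within day 2 and -2.56 outside it). MYL3 was also highest in dex + clen bulls 1 and 3. MYH4 was at 1.74, 1.25, 1.73 and 1.30, with a log2 change of 0.63 ± 0.37. The other fast genes had log2 changes of 0.61 ± 0.62 (CASQ1, with 2.22 within day 2 and -1.43 outside it), 0.40 ± 0.30 (MYLK2), 0.25 ± 0.45 (ACTN3), -0.05 ± 0.27 (ATP2A1), -0.09 ± 0.41 (MYBPC2), -0.10 ± 0.19 (MYL1), -0.10 ± 0.29 (MYLPF), -0.11 ± 0.23 (MYOZ1, on a probe saturated on some arrays of both groups), -0.17 ± 0.32 (TPM1) and -0.36 ± 0.36 (MYH1). The other MYLK2 probe, which is not among the genes counted, gave 0.79 ± 0.35 (limma unadjusted p = 0.0430). TNNC2 was saturated on every array of both groups and has no fold.

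**Figure D4:**
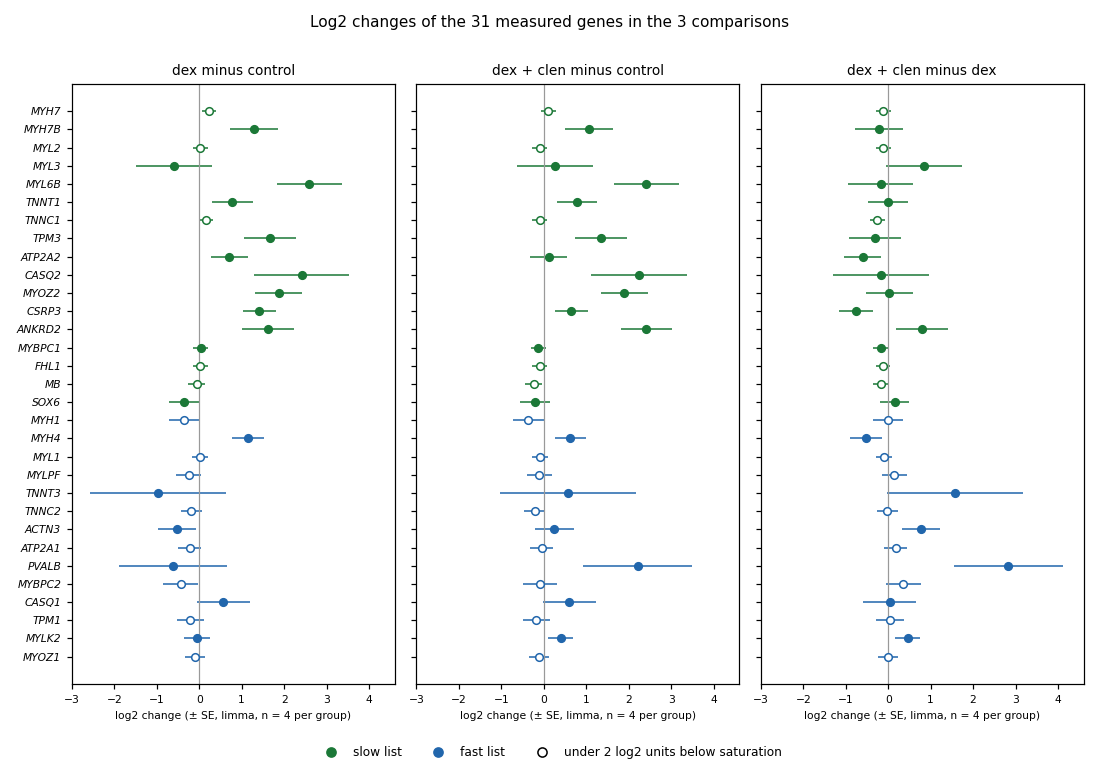
Log2 change (± SE, limma, n = 4 bulls per group) of each of the 31 measured genes, slow list in green above and fast list in blue below, with open symbols for genes less than 2 log2 units below saturation. Farthest to the right of 0 in both comparisons with control are filled slow genes such as MYL6B, CASQ2, MYOZ2 and ANKRD2. The open symbols, of which MB, TNNC2, TNNC1 and MYOZ1 include saturated arrays, lie near 0. Of the 5 open slow genes, 4 lie above 0 in dex against control and 1 in dex + clen against control.

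The third comparison, dex + clen against dex bulls, bears on clenbuterol together with the lower dose and shorter course of dexamethasone. Limma called 0 of 31 members at an adjusted p under 0.05, against 0.0146% of all genes tested. At an unadjusted p under 0.05, PVALB alone was higher and 0 members were lower, where 6.71% of all genes were higher and 4.31% lower. Every member's groups overlapped, where 2.52% of all genes were higher and 2.77% lower with no overlap. The slow list had a median log2 change of -0.17 with 4 of 17 above 0 and the fast list 0.09 with 9 of 14 above 0, beside 0.02 over all genes.

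Those medians moved with single animals. The slow median was -0.02 without dex bull 3, -0.08 without dex + clen bull 2, -0.10 without dex + clen bull 4 and -0.27 without dex bull 4. The fast median was -0.19 without dex bull 1 and 0.36 without dex bull 4, and it was 0.23 without dex bull 2 and 0.19 without dex + clen bull 1 or 2. Leaving out dex + clen bull 3 or 4 gave a fast median of 0.06. Within scan day 2, with 3 bulls of each group and the groups on different slides, the slow median was -0.17 and the fast median 0.27.

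PVALB was at 1.72, 1.50, 2.56 and 3.95 in dex + clen bulls, against -2.96, 2.08, -2.46 and 1.73 in dex bulls. Dex bulls 1 and 3 were low, and dex bulls 2 and 4 lay among the dex + clen bulls. The log2 change was 2.83 ± 1.27 (7.13-fold, limma adjusted p = 0.442), with 3.04 within scan day 2. ACTN3 was at 7.09, 6.63, 7.28 and 7.46 in dex + clen bulls, against 4.76, 7.16, 6.29 and 7.17 in dex bulls (log2 change 0.77 ± 0.45). MYLK2 had a log2 change of 0.46 ± 0.30 on its brighter probe and 1.04 ± 0.35 on its other probe, whose levels were 2.23, 1.90, 2.77 and 2.36 in dex + clen bulls and 0.60, 1.73, 0.78 and 1.99 in dex bulls.

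Among slow genes CSRP3 had the smallest p. Its log2 change was -0.76 ± 0.39 (limma adjusted p = 0.519), and 3 of 4 dex + clen bulls lay below every dex bull. ANKRD2 lay the other way, at 0.80 ± 0.60. For MYL6B the log2 change between the treated groups was -0.18 ± 0.76 (95% interval -1.84 to 1.48), for MYOZ2 0.03 ± 0.56 (-1.19 to 1.25) and for TNNT1 -0.01 ± 0.47 (-1.03 to 1.02). These intervals leave room for differences of more than 1 log2 unit in either direction. MYH7 had -0.12 ± 0.17, ATP2A2 -0.60 ± 0.43, TPM3 -0.32 ± 0.61 and MYH4 -0.52 ± 0.37. The second ATP2A2 probe went the other way, at 0.30 ± 0.41.

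Seen by animal, the slow gene means overlapped between groups. With each gene centred on its mean over the 12 arrays, the mean of the 17 slow genes was 0.64, -0.02, 0.48 and -0.24 in dex + clen bulls 1 to 4, 0.57, 0.29, 0.69 and -0.36 in dex bulls and -0.86, -0.52, 0.11 and -0.79 in control bulls. The treated bull scanned apart was the lowest of its group in both treated groups. Control bull 4, the only control bull scanned on day 2, was low too, at -0.79. It was the lowest of all 12 arrays in 4 of 17 slow genes, as was control bull 1 in 4 others. Control bull 3 was the highest of the controls and lay above all other control bulls in 11 of 17 slow genes. Dex + clen bull 4 lay within the range of the controls in 16 of 17 slow genes and dex bull 4 in 14 of 17.

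The mean of the 14 fast genes was 0.28, -0.30, 0.63 and 0.26 in dex + clen bulls, -1.19, 0.27, -0.40 and 0.56 in dex bulls and 0.06, 0.06, -0.32 and 0.08 in control bulls. Dex bull 1 was far below all others. The slow mean minus the fast mean was 0.37, 0.28, -0.16 and -0.50 in dex + clen bulls, 1.76, 0.02, 1.09 and -0.92 in dex bulls and -0.92, -0.58, 0.43 and -0.87 in control bulls. It averaged -0.00 ± 0.40 in dex + clen, 0.49 ± 1.18 in dex and -0.48 ± 0.62 in control bulls (SD, n = 4 each), and the 3 groups overlapped.

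**Figure D5:**
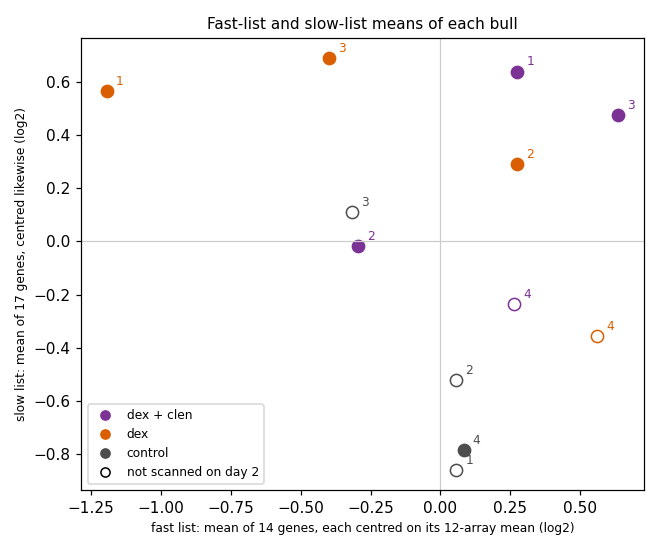
Mean of 17 slow-list genes (vertical) against the mean of 14 fast-list genes (horizontal), each gene centred on its mean over 12 arrays (log2), with 1 numbered point per bull and open points for arrays not scanned on day 2. Dex bull 1 stands alone at a fast mean of -1.19, and 3 of 4 control bulls lie below a slow mean of -0.5.

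Dex bull 1 also stood apart in other fixed marker lists, as means of centred levels per array. The 5 tested of 6 genes for embryonic or regenerating fibres averaged -0.01 to 0.47 in dex + clen bulls, 2.73 in dex bull 1 and -1.08 to -0.40 in the other dex bulls, and -0.75 to 0.01 in control bulls. The 4 tested cardiac markers averaged 0.03 to 0.21 in dex + clen bulls, 2.00 in dex bull 1 and up to 0.28 in the other dex bulls, and -0.63 to -0.37 in control bulls. The 9 leukocyte markers averaged -0.30 to 0.33 in dex + clen bulls, 1.02 in dex bull 1 and -1.46 to -0.46 in the other dex bulls, and 0.39 to 0.90 in control bulls. The part of these markers in the fibre gene values was not tested. Without dex bull 1 the slow median for dex against control was 0.58.

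Fibroblast markers were also described. Their 10 genes averaged -0.50 to 0.65 in dex + clen bulls, -1.31 to 0.28 in dex bulls and 0.37 to 0.77 in control bulls, all 10 were well above background on all 12 arrays, and 10 of 10 had a log2 change below 0 in dex against control, with 0 called by limma and 8 lower at an unadjusted p under 0.05, where 6.87% of all genes were. In dex + clen against control 9 of 10 were below 0, with 0 called by limma and 1 lower at an unadjusted p under 0.05, where 5.14% of all genes were. Of the 9 leukocyte markers, 8 had a log2 change below 0 in dex against control. At an unadjusted p under 0.05, 6 were lower, where 6.87% of all genes were. Limma called 1 of them, CD3E, lower (log2 change -1.74 ± 0.31, limma adjusted p = 0.0312), where 0.613% of all genes were called in either direction. CD3E was dim, at a mean level of -3.83 and well above background on 11 arrays. With scan day as a block 0 genes of the whole array were called. The part of both lists in the slow gene values was not tested.

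The spread between animals of a group was wide for the fibre genes. The median standard deviation within groups was 0.69 for slow genes, 0.53 for fast genes and 0.35 for all genes tested. In the control bulls alone it was 0.55, 0.20 and 0.28 for the same sets. Among fast genes in the control bulls, the 8 near saturation had a median of 0.13 and the 6 others 0.72.

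Genes that act in both fibre kinds were described from 3 fixed lists. For the shared sarcomere (36 of 39 genes tested), the median log2 change was 0.25 in dex and 0.24 in dex + clen against control and 0.02 between the treated groups, with 0 genes called by limma in any of the 3 and 6, 6 and 0 genes higher at an unadjusted p under 0.05. Over all genes tested, 5.46%, 6.98% and 6.71% were higher at that p in these comparisons, and 6.87%, 5.14% and 4.31% were lower. CRYAB, a small heat shock protein of the Z-disc, had 0.66 ± 0.23 and ACTN2, the actinin of all fibres, 0.51 ± 0.20 in dex against control. SMYD1, a methyltransferase of muscle, had 0.68 ± 0.18 and the small heat shock protein HSPB7 1.77 ± 0.51 in dex + clen against control. In dex + clen against dex, ACTN2 had -0.37 ± 0.20.

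For calcium release and uptake (19 of 24 genes tested), the medians were -0.01, 0.13 and 0.07 in the same order, with 0 genes called. At an unadjusted p under 0.05, 1 gene was higher and 2 lower in dex against control, 4 and 0 in dex + clen against control, and 2 and 0 between the treated groups, beside the same shares over all genes (5.46% higher and 6.87% lower, 6.98% and 5.14%, 6.71% and 4.31%). ASPH, whose products include junctin, had -0.61 ± 0.22 in dex against control and 0.70 ± 0.22 in dex + clen against dex. HRC, a calcium-binding protein of the reticulum, had 0.52 ± 0.19 in dex and 0.49 ± 0.19 in dex + clen against control. CACNA1S, the voltage sensor of skeletal muscle, had 0.58 ± 0.21 in dex + clen against control and 0.54 ± 0.21 against dex.

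For regulators of fibre type (35 of 42 genes tested), the medians were 0.15, 0.17 and 0.02, with 0 genes called in any comparison. At an unadjusted p under 0.05, 9 were higher and 0 lower in dex against control, 7 and 1 in dex + clen against control and 2 and 5 between the treated groups, where the shares over all genes were 5.46% and 6.87%, 6.98% and 5.14%, and 6.71% and 4.31%. VGLL2, a cofactor of TEAD factors in skeletal muscle, came nearest to a call, at 1.55 ± 0.32 (limma adjusted p = 0.0622) in dex against control. MYOD1, a myogenic factor richer in fast muscle, had 1.33 ± 0.31 (limma adjusted p = 0.0830) in dex against control and -1.09 ± 0.31 (limma adjusted p = 0.230) in dex + clen against dex. In dex + clen against control, RCAN1, an inhibitor and target of calcineurin signalling, had 1.90 ± 0.50 and NFATC1, the factor that calcineurin switches on, 0.82 ± 0.27 (limma adjusted p of 0.214 and 0.278). FLCN, a regulator of AMPK and mTOR signalling, had -0.53 ± 0.17 in dex + clen against dex. The 3 comparisons share samples, so their values for these genes are not independent of each other.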

How the data were processed

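Each sample is 1 animal on a 1-colour Agilent bovine array. The deposited scanner files hold spot intensity on a linear scale, made with Agilent Feature Extraction 9.5.1.1, per the file headers. The authors' deposited value table also holds intensity, which ranked spots as the scanner signal did. How it was made is not stated in these sources. From the processed signal, log2 values minus each array's 75th percentile were computed, outlier spots were left out, saturated spots kept and spots of a probe averaged. A probe was kept if 4 or more of the 12 arrays had it well above background (14702 probes), with the brightest probe standing for a gene. Current gene names came from RefSeq annotation of ARS-UCD2.0, from which no coordinates were taken. The comparisons used limma 3.58.1 (R 4.3.3) over all 12 arrays, with 3 group means and Benjamini-Hochberg adjustment over all 13706 genes. All p-values are two-sided, and the fit was tested on simulated data. Labels say each sample is a separate bull, and replicate numbers follow deposit order only.

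All 31 measured members are named, and of the other lists only called genes or the 2 with the smallest p per comparison, of which 1 value is not reported here. Members, lists and alternatives were chosen with earlier results of these data known. Alternatives were other scalings, filters, probe rules, scan day or slide as a block and leaving out each animal. The mean correlation between arrays of the same group was 0.9718, and no pair was identical (highest 0.9838).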

Additional observations from a re-analysis of the deposited data

Results flagged for a closer look

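Over the 31 genes and 3 groups, 93 sets of 4 values were looked at for an animal far from the other 3 of its group, and 2 were found, both in control bull 3. Chance alone flags about 1 in 20 such sets. MYL6B stood at 7.92 in control bull 3, while the next control value was 4.57 and the lowest 4.34, so 0.935 of the group's range lay in that gap. SOX6 stood at -3.58 in control bull 3, with the next at -2.64 and the highest at -2.58, a share of 0.944.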

How the results depend on the processing

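No paired analysis was possible because replicate numbers follow deposit order and tie no animals together. Members called stayed at 0 in all 3 comparisons under every alternative run, except 1 (MYL6B, dex against control) without control bull 3, so leaving out each animal gave 0 to 1, 0 to 0 and 0 to 0. Of 2124 member values under alternatives, 1990 kept their sign, and no scaling moved the median of all genes by more than 0.0343. Genes called over the whole array depended strongly on the setting. In dex against control 84 became 25 with no filter on dim probes, 13 with day 2 as a block, 0 with every scan day as a block and 24 (without control bull 1) to 257 (without dex bull 1) leaving out animals. In dex + clen against control 6 became 3 under quantile scaling, normexp background and a fit of the 2 groups alone, 2 with probes averaged, 0 with no filter, a filter on all 12 arrays, day 2, scan day or slide as a block, and 0 to 11 leaving out animals. Between the treated groups 2 became 0 under quantile scaling, no filter, averaged probes, each block and the 2 groups alone, 1 under normexp or the filter on all 12 arrays, and 0 to 74 leaving out animals. The slow median for dex against control, 0.71, was 0.37 with day 2 as a 2-level block. With every scan day as a block it was 1.28, the same value as within day 2, the only day holding both dex and control bulls. It was 0.15 outside day 2, 1.35 without genes near saturation (an alternative chosen after seeing the data) and 0.46 to 1.12 leaving out animals. The fast median, -0.22, was 0.42 outside day 2 and -0.43 to 0.09 leaving out animals. Without genes near saturation the medians for dex + clen against control were 0.92 (slow) and 0.59 (fast), and the fast median between treated groups was 0.61. Leaving out animals gave 0.11 to 0.44 and -0.17 to 0.02 for the slow and fast medians of dex + clen against control, and -0.27 to -0.02 and -0.19 to 0.36 between the treated groups. The difference of slow and fast means kept its direction under the 5 scalings and probe rules run, none of which changed scan day or left out an animal. Outside day 2 that difference was -0.92 in dex bull 4 and -0.50 in dex + clen bull 4. It was -0.92, -0.58 and 0.43 in control bulls 1 to 3, so the direction was not kept there. The cause of these shifts was not tested. Of the 13 genes near saturation, 4 were saturated on some arrays (MB, TNNC2, TNNC1 and MYOZ1). Whether saturation limits the others was not tested. Dim signal limits CASQ1, CASQ2 and SOX6.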
